A study of Mus musculus with 15 samples.

Results

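The comparison described here is daily against weekly prednisone in dystrophic muscle: 5 daily and 5 weekly libraries, 10 of the 15 in the study, chosen by their treatment label. RNA was sequenced from quadriceps of male DBA/2J-mdx mice, which lack full-length dystrophin because of the mdx mutation and carry it on the DBA/2J background, where the disease is more severe than on other common backgrounds. All 3 groups of the study were injected intraperitoneally 7 times per week. In the daily group each of the 7 injections carried 1 mg/kg of the synthetic glucocorticoid prednisone. In the weekly group 1 injection carried that dose and the other 6 held only the solvent, DMSO. The vehicle group received DMSO throughout, and its 5 libraries enter no test here, so their levels are given only beside those of the other groups. The protocol text places the mice at 6 months and the sample descriptions at about 7 months. How long treatment lasted, and how long before tissue collection the last prednisone injection fell, are not stated by the labels. The daily group also received more prednisone per week, so dosing frequency and weekly dose cannot be told apart. The labels do not say that each library comes from a separate mouse, so the p-values measure the spread between these libraries, which may be technical. The vehicle libraries differed from one another by little more than sampling noise: the chi-square of their counts per degree of freedom was 1.51 to 2.05 for their 10 pairs, against 20.03 to 95.2 among the weekly and 4.93 to 231 among the daily libraries. Whether the vehicle libraries come from separate mice cannot be told from the labels or files, and their ranges are read only as levels.

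Prednisone acts, after conversion in the body to prednisolone, through the glucocorticoid receptor, a transcription factor encoded by Nr3c1. In muscle its direct targets include the receptor co-chaperone Fkbp5, the clock gene Per1, the anti-inflammatory factor Tsc22d3 and the metabolic regulator Klf15, and sustained exposure is known to engage FoxO factors and the ubiquitin ligases Trim63 and Fbxo32 that mark muscle protein for breakdown. Glucocorticoids also act on fat: they regulate fatty acid synthesis and storage in adipocytes, which accumulate between the fibres of dystrophic muscle and are part of any bulk sample of it.

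Levels are given as scaled CPM, which are deposited CPM values (reads per gene relative to library depth) divided by a TMM factor, a trimmed mean of ratios that corrects for the make-up of each library. Depth was between 2780768 and 11052552 reads in the weekly and between 4778253 and 7361026 in the daily libraries. Muscle genes were among the most abundant in all 10 libraries, with Acta1 (skeletal actin) at 10711 to 17476 and Ckm (muscle creatine kinase) at 4333 to 8015 scaled CPM. Weekly 4 and daily 3 were unlike the rest. In weekly 4, which was also the least deeply sequenced, mitochondrially encoded features, ribosomal RNA among them, made up 0.776% of the values. They made up 9.80% to 14.2% in weekly 1, 2, 3 and 5 and 12.3% to 19.9% in the daily group. The spread of its gene levels around the weekly mean (SD of log2 values) was 0.70, compared with 0.24 to 0.37 for weekly 1, 2, 3 and 5 and 0.21 to 0.26 for the daily group. Daily 3 had 28.3% of its values in 2 features, Gm26924 and Lars2, which take up reads of ribosomal RNA origin, against 0.274% to 4.64% in the other daily libraries. For that reason the TMM scale was used, and counts of called list members are given with and without weekly 4.

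The largest decreases with daily treatment were in genes of fat metabolism. Of 13713 genes tested, 105 were lower with daily than with weekly prednisone (0.766%) and 114 were higher (0.831%), at a BH-adjusted p under 0.05 by limma, or 1.6% in all. The lower genes changed more, with a median log2 difference of -1.31 against 0.83 for the higher genes, and 68 of the lower but 35 of the higher genes differed at least 2-fold. Fatty acid synthesis enzymes and adipocyte genes led the lower group: 21 of its 105 genes stood on the adipocyte or lipid synthesis list. The weekly and daily libraries did not overlap for 92 of the 105 lower and 110 of the 114 higher genes. Over all genes tested, every daily library was above every weekly library for 386 (2.81%) and below it for 330 (2.41%). An unadjusted p under 0.05 was reached by 1921 of the 13713 genes, which is the background for such counts on the lists below. The median difference over all genes was 0.02. On the deposited scale, without TMM, that median was -0.24 and the calls split into 17 higher and 211 lower.

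**Figure D1:**
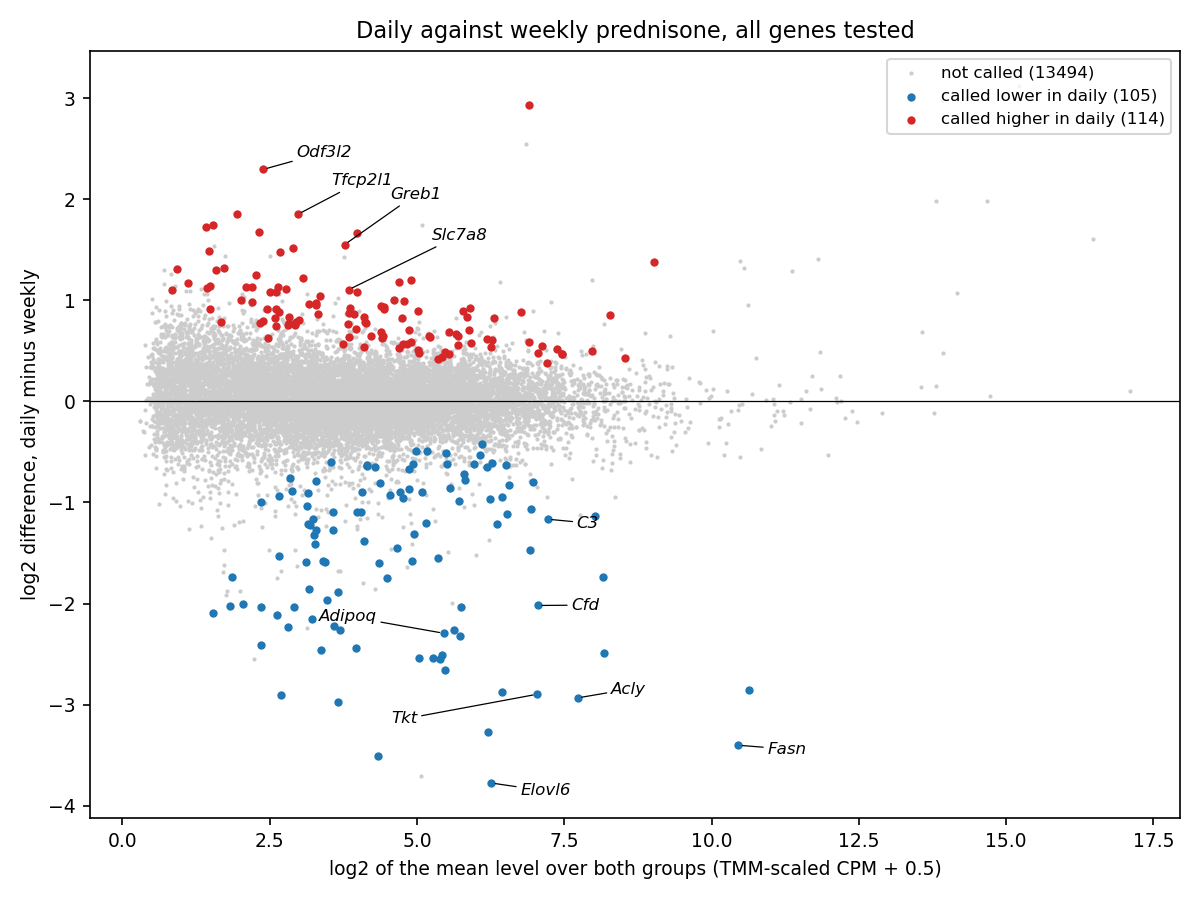
Log2 difference between daily and weekly prednisone (vertical axis) against the mean level of each gene over both groups (horizontal axis, log2 of TMM-scaled CPM + 0.5), for 13713 genes. Red points are the 114 genes called higher and blue points the 105 called lower in daily; the lower calls reach a log2 difference of -3.77 (Elovl6) and the named higher calls 2.29 (Odf3l2).

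The number of calls depended on single libraries. Without weekly 4, limma called 536 genes higher (3.95%) and 628 lower (4.62%), and these held all 114 of the higher and 104 of the 105 lower genes called with it. Without weekly 4 and daily 3 it called 455 higher (3.36%) and 490 lower (3.62%). Leaving out weekly 1, weekly 3 or weekly 5 left 68, 41 and 43 higher and 66, 24 and 37 lower genes. Leaving out weekly 2 left 117 higher and 186 lower genes. Leaving out any 1 daily library left 30 to 41 higher and 18 to 31 lower genes. The rule named 41 called genes, and 12 of them kept their call under each alternative in which they were tested: Fasn, Tkt, Srebf1, Adipoq, Cfd, C3, Hsp90aa1, Hba-a1, Odf3l2, Tfcp2l1, Cacna1i and Greb1. None of the 41 changed direction under any alternative.

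RNA levels of fatty acid synthesis genes were lower in daily than in weekly muscle. Of 22 genes tested on the lipid synthesis list, 10 were called lower and 0 higher, and the list's median log2 difference was -0.92 against 0.02 over all genes. Of the 22, 21 had a negative difference. Without weekly 4, 19 were called lower, and leaving out any other single library left between 2 (weekly 3, and daily 2, 3, 4 or 5) and 12 (weekly 2).

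Fasn encodes fatty acid synthase, which builds palmitate from acetyl-CoA and malonyl-CoA. Its levels were 2886, 862, 3205, 812 and 5249 scaled CPM in weekly libraries 1 to 5 and 305, 151, 144, 178 and 217 in daily libraries 1 to 5. Every weekly library was above every daily library, with weekly 5 the highest and weekly 2 and 4 the lowest of their group (log2 difference -3.40, SE 0.46, BH-adjusted p = 0.010 by limma; 95% interval -4.41 to -2.39). The vehicle libraries held 215 to 251, within the daily range and below every weekly library.

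The enzymes that feed Fasn or extend its product ranked the weekly libraries in the same order. Acly, ATP citrate lyase, supplies the acetyl-CoA and stood at 399, 98.2, 578, 90.7 and 767 in the weekly and 44.3, 31.2, 28.8, 35.4 and 40.8 in the daily libraries (log2 difference -2.93, SE 0.53, BH-adjusted p = 0.018 by limma). Elovl6, which lengthens palmitate, stood at 138, 35.8, 219, 14.9 and 321 in the weekly and 9.51, 4.55, 3.38, 5.59 and 9.08 in the daily libraries (log2 difference -3.77, SE 0.69, BH-adjusted p = 0.0207 by limma). In both genes the groups did not overlap and weekly 5 was the highest library. Thrsp, a small regulator of lipogenesis, had 139, 40.3, 186, 23.6 and 295 and 16.2, 6.02, 9.91, 7.65 and 9.22 in the same order (log2 difference -3.27, SE 0.58, BH-adjusted p = 0.0167 by limma). The remaining calls on the list were Acaca, the acetyl-CoA carboxylase of the committed step (log2 difference -2.49), Scd1, the desaturase that makes oleate (-2.86), the mitochondrial citrate carrier Slc25a1 (-2.54), and the triglyceride assembly enzymes Agpat2 (-2.51) and Dgat2 (-2.32).

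Srebf1, the transcription factor that drives many of these enzymes, differed less but more evenly. It stood at 102, 101, 119.5, 119 and 110.0 in the weekly and 75.4, 73.01, 74.7, 70.5 and 62.8 in the daily libraries, with no overlap (log2 difference -0.63, SE 0.09, BH-adjusted p = 0.0108 by limma). Its vehicle levels, 70.96 to 73.9, fell within the daily range. Srebf1 kept its call in all 23 alternatives, while Acly and Elovl6 kept theirs in 17 and 15 of 23.

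**Figure D2:**
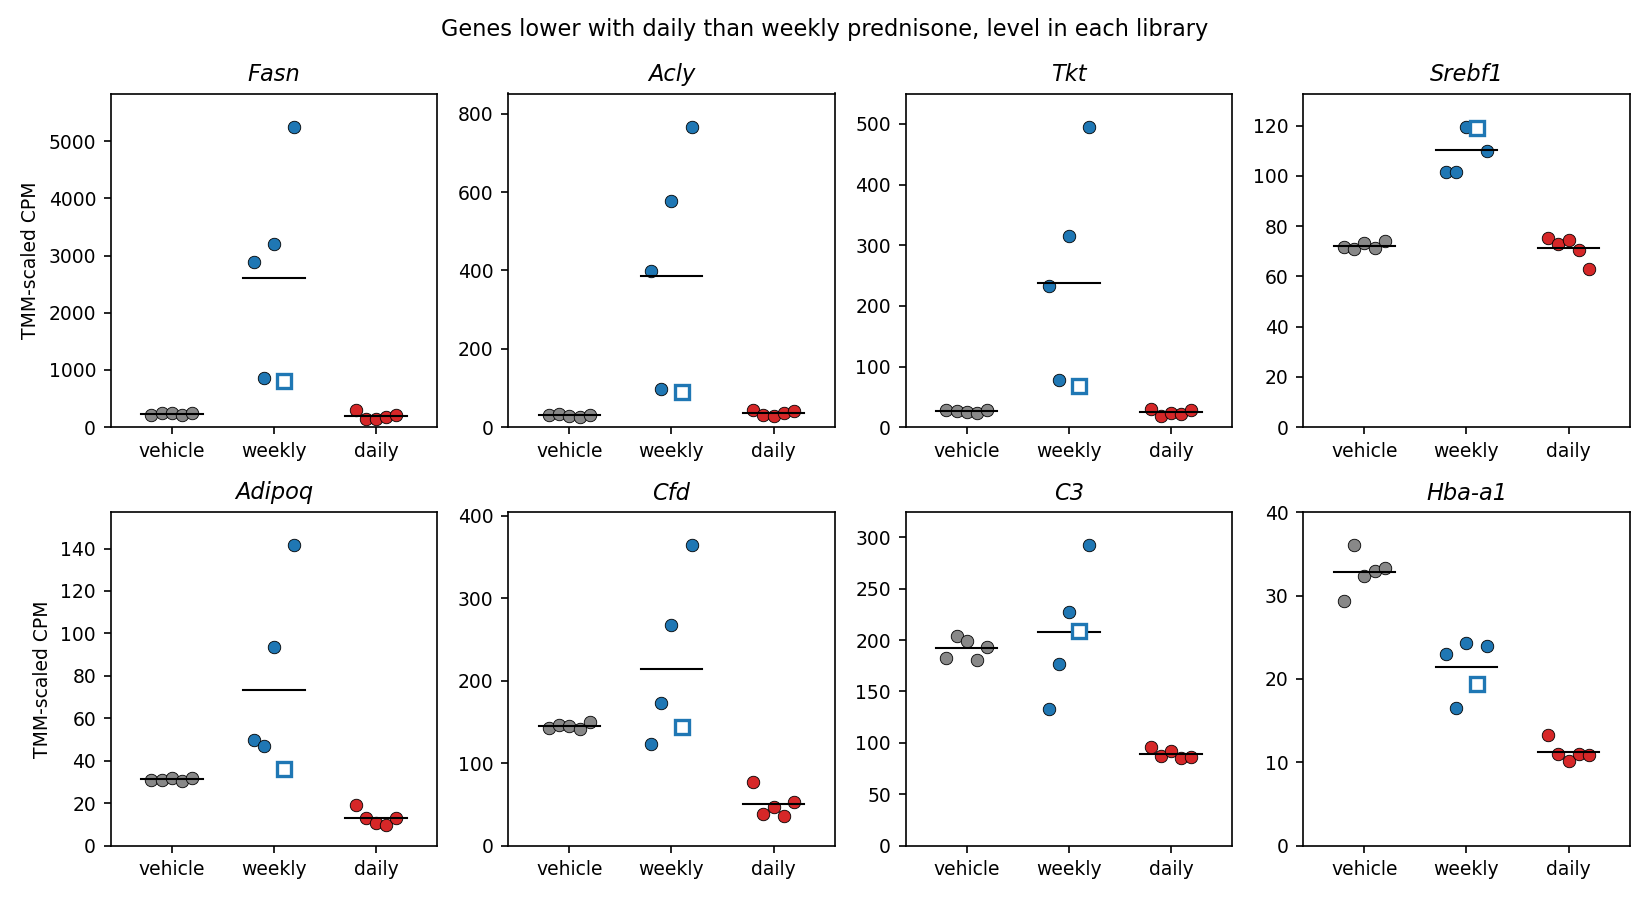
TMM-scaled CPM (vertical axis, linear, from 0) of 8 genes in each of 5 vehicle, 5 weekly and 5 daily libraries (horizontal axis); points are libraries in order of replicate number, the open square is weekly 4 and bars are group means. Fasn, Acly, Tkt and Srebf1 were close to vehicle in the daily libraries and above it in the weekly ones, while Adipoq, Cfd, C3 and Hba-a1 were below vehicle in every daily library.

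NADPH for fatty acid synthesis comes in part from the pentose phosphate pathway. Of 12 genes tested for it, 2 were called lower and 0 higher (median log2 difference -0.66, all 12 negative), and 6 were called lower without weekly 4. Tkt, the transketolase of its non-oxidative branch, stood at 232, 78.02, 315, 68.6 and 495 in the weekly and 29.4, 18.5, 22.7, 22.3 and 28.3 in the daily libraries (log2 difference -2.90, SE 0.46, BH-adjusted p = 0.0119 by limma). The groups did not overlap, and vehicle held 22.7 to 28.5. Taldo1, the transaldolase of the same branch, went from a mean of 70.2 ± 20.2 (SD, n = 5) with weekly to 34.05 ± 1.89 (SD, n = 5) with daily treatment (log2 difference -0.98, BH-adjusted p = 0.017 by limma). Without weekly 3, or without any 1 daily library, 1 of the 12 was called.

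Of 20 cholesterol synthesis genes tested, 3 were called lower and 0 higher, with a median of -0.40 and all 20 differences negative. The 3 were Insig1, a sterol-regulated brake on SREBP processing (log2 difference -1.55), Pmvk (-1.23) and Fdps (-0.60), enzymes of the mevalonate route. Pmvk stood at 10.5, 6.33, 13.8, 14.9 and 16.5 in the weekly and 6.02, 4.55, 4.83, 4.34 and 4.25 in the daily libraries, without overlap. Without weekly 4, 9 of the 20 were called, and without weekly 3, without weekly 5, or without daily 2, 3, 4 or 5, 0 were.

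Adipocyte genes were lower as well. Of 23 adipocyte markers tested, 11 were called lower and 0 higher, with a median log2 difference of -1.21, and 21 of the 23 had a negative difference. Without weekly 4, 20 were called lower. Leaving out another single library left between 2 (daily 3) and 12 (weekly 2). In bulk tissue, fewer adipocytes and less of these RNAs per adipocyte cannot be told apart.

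Adipoq encodes adiponectin, a hormone made almost only by adipocytes. It stood at 49.6, 47.2, 93.4, 36.1 and 141 in the weekly and 19.2, 13.1, 10.6, 9.72 and 13.03 scaled CPM in the daily libraries, without overlap (log2 difference -2.29, SE 0.32, BH-adjusted p = 0.010 by limma; 95% interval -2.99 to -1.59). Vehicle held 30.7 to 31.95, above every daily and below every weekly library. Cfd, the adipocyte-secreted complement factor adipsin, stood at 123, 173, 268, 144 and 364 and 77.4, 38.1, 46.9, 36.2 and 52.7 (log2 difference -2.02, SE 0.29, BH-adjusted p = 0.010 by limma). Its vehicle levels, 142 to 149.6, were above every daily library and inside the weekly range. Fabp4, the fatty acid binding protein of adipocytes and also of capillary endothelium, stood at 393, 243, 499, 149 and 1005 in the weekly and 133, 96.7, 107, 111 and 111 in the daily libraries (log2 difference -1.74, SE 0.38, BH-adjusted p = 0.0431 by limma); its call held in 14 of 23 alternatives.

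The other adipocyte calls were the hormone resistin (Retn, log2 difference -2.26), the lipid droplet coats Plin1 (-2.03) and Plin2 (-1.11), the adipogenic factors Cebpa (-1.21) and Adig (-2.23), the beta-3 adrenergic receptor Adrb3 (-2.45), Tusc5 (-2.22) and Cidea (-3.51). Cidea, a lipid droplet protein also used as a marker of brown fat, was the least even of them: its weekly libraries held 56.9, 8.698, 37.8, 2.09 and 83.1 and its daily libraries 3.08, 1.605, 0.242, 1.45 and 1.61. Weekly 4 lay inside the daily range for Cidea, its BH-adjusted p by limma was 0.0499, and its call held in 9 of 22 alternatives. In daily 3 the level of Cidea was under 3 reads. Of 13 brown and beige fat genes, Cidea alone was called with all libraries, and 6 were called lower without weekly 4.

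The summed level of the 23 adipocyte markers was 3272 to 7791 scaled CPM over the weekly libraries, 2684 to 3311 over the daily and 3851 to 4124 over the vehicle libraries. For the 22 lipid synthesis genes the sums were 2572 to 16610, 1484 to 2003 and 1783 to 1897 in that order. The weekly libraries therefore spread more widely than the daily or vehicle ones on both lists. Among the 21 called genes of the lists, weekly 5 was the highest weekly library for 19 and weekly 4 the lowest for 17. The lists also differed in where vehicle stood. The vehicle mean was within the daily range for 7 of the 10 called lipid synthesis genes and above it for the other 3, but above every daily library for 10 of the 11 called adipocyte markers. The difference between the lists in that respect was not tested.

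Outside both lists, Ppp1r3b and Kcnk3 stood among the 8 largest decreases that the rule named. Ppp1r3b, a targeting subunit that directs protein phosphatase to glycogen, stood at 33.7, 5.97, 29.7, 3.58 and 39.96 in the weekly and 2.52, 1.47, 0.967, 1.24 and 1.903 in the daily libraries, without overlap (log2 difference -2.98, SE 0.58, BH-adjusted p = 0.0252 by limma). Kcnk3, a two-pore potassium channel, had 15.3, 3.78, 9.94, 2.98 and 23.1 and 2.38, 0.535, 0.242, 1.24 and 0.146 (log2 difference -2.90, SE 0.55, BH-adjusted p = 0.0228 by limma). Its daily levels reach down to about 1 read, so the size of its difference leans on the constant of 0.5 CPM added before the logarithm.

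**Figure D3:**
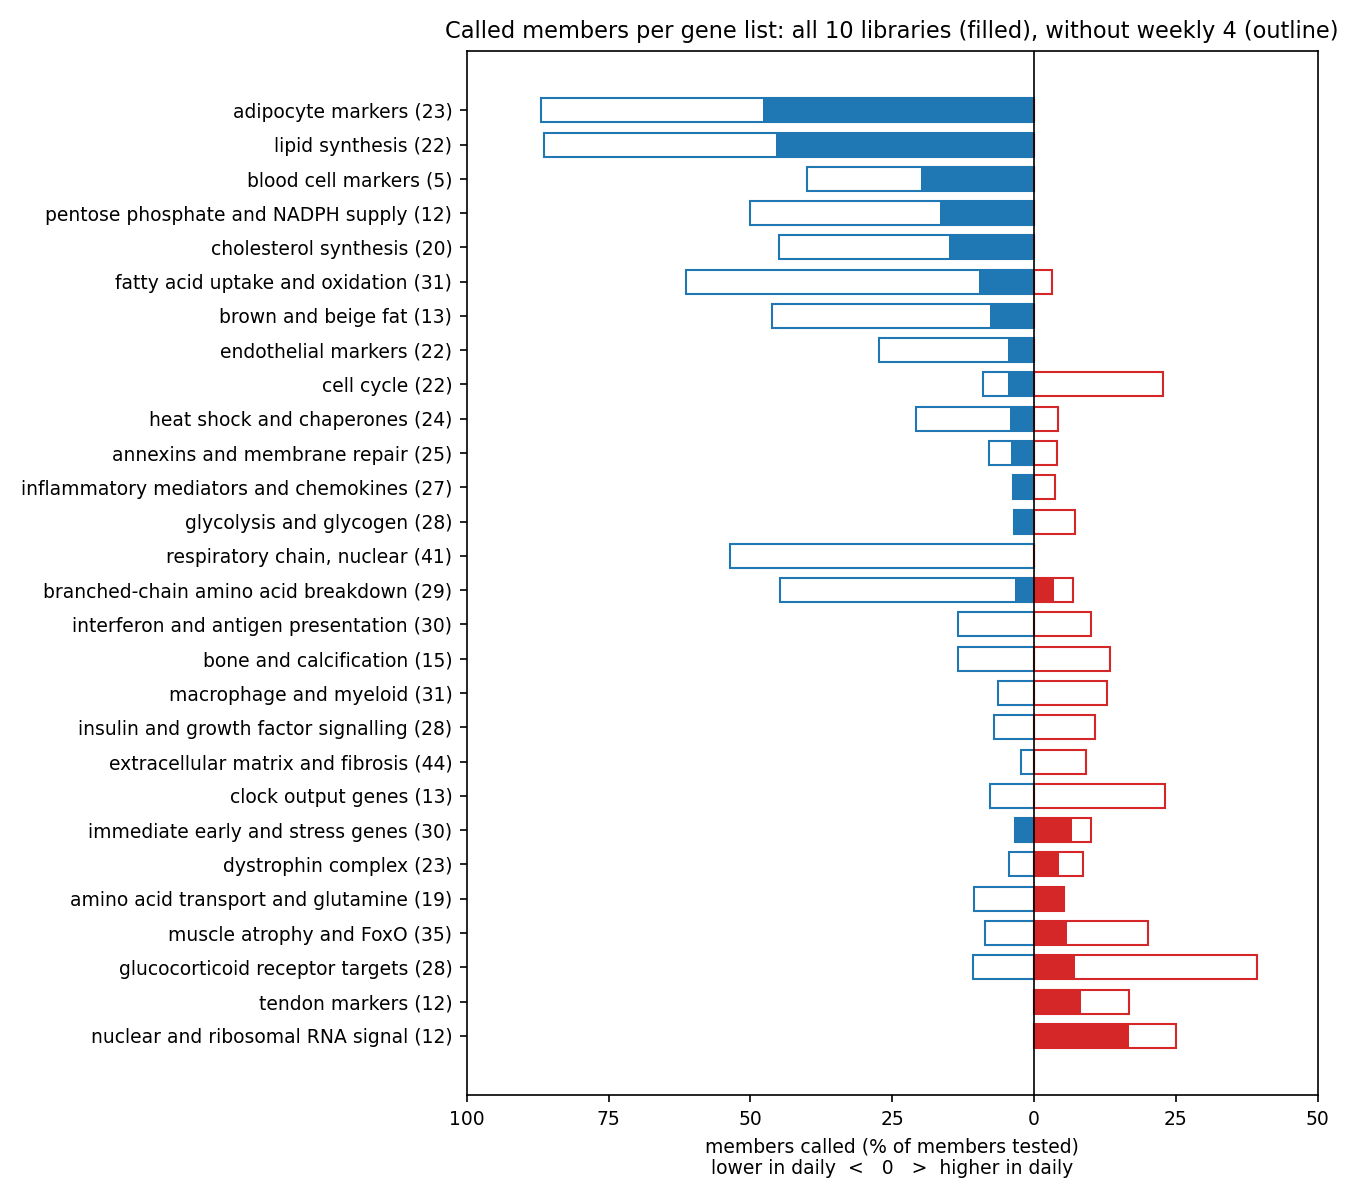
Percentage of tested members called lower (blue, left) or higher (red, right) in daily than weekly prednisone for each gene list whose calls with all libraries and without weekly 4 add up to 3 or more; filled bars use all 10 libraries, outlines leave out weekly 4, and the number tested is in parentheses. Adipocyte markers (11 of 23) and lipid synthesis (10 of 22) have the longest filled bars, and the outline of the nuclear-encoded respiratory chain (22 of 41) has no filled counterpart.

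Some genes of fuel oxidation in mitochondria also fell. Of 31 fatty acid uptake and oxidation genes, 3 were called lower and 0 higher, with a median log2 difference of -0.46 and 24 negative. Acads, the short-chain acyl-CoA dehydrogenase, stood at 73.3, 43.3, 50.7, 72.8 and 63.7 in the weekly and 35.5, 33.3, 36.01, 29.4 and 30.01 in the daily libraries, without overlap (log2 difference -0.85, SE 0.15, BH-adjusted p = 0.0167 by limma). Acadvl, its very-long-chain counterpart, and Echs1, the short-chain enoyl-CoA hydratase, had log2 differences of -0.80 and -0.77. Without weekly 4, 19 of the 31 were called lower and 1, the uncoupling protein Ucp3, higher. Without daily 2, 4 or 5 none was, and without weekly 1, 3 or 5 or daily 1 or 3, 1 was; without weekly 2, 7 were.

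None of the 41 nuclear-encoded respiratory chain genes on the list was called with all libraries by limma. Of their differences, 37 were negative (median -0.28), and 17 had an unadjusted p under 0.05, against 1921 of all 13713 genes tested. On the recovered reads, edgeR called 1 of the 41 and DESeq2 10 lower. Cox4i1, a subunit of cytochrome c oxidase, had the smallest p on the list: its weekly libraries held 379.8, 228, 268, 369 and 283 and its daily libraries 211, 214, 185, 198 and 187 (log2 difference -0.59, BH-adjusted p = 0.0615 by limma). Without weekly 4, 22 of the 41 were called lower, and without weekly 2, 6 were. Every daily library was below every weekly library for 13 of the 41 genes. Cox6a1, another nuclear-encoded subunit of cytochrome c oxidase, was not on the list, was called lower and is named here after its value was seen. Its mean was 34.9 with weekly and 8.97 with daily treatment, without overlap (log2 difference -1.74, BH-adjusted p = 0.0185 by limma), and 11.3 in vehicle.

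The 13 mitochondrially encoded genes went the other way, with a median log2 difference of 1.06, all 13 positive and 0 called by limma, edgeR or DESeq2. Only 1 of the 13 had an unadjusted p under 0.05. Their median was 0.25 without weekly 4, and their summed level was 1409 scaled CPM in weekly 4, while weekly 1, 2, 3 and 5 held 26228 to 34523 and the daily libraries 33287 to 36806. The share of values in all mitochondrially encoded features was 0.776% to 14.2% over the weekly and 12.3% to 19.9% over the daily libraries (exact permutation test over the 252 splits, two-sided p = 0.0238, BH-adjusted over 2 library measures p = 0.0476). That share includes the ribosomal RNA mt-Rnr2, which alone held 0.567% to 9.41% in the weekly and 8.05% to 14.4% in the daily libraries. The test therefore does not measure the 13 genes alone. Over the vehicle libraries, which were not in the test, the share was 17.1% to 18.0%. The smallest p such a test can reach is 0.00794.

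Breakdown of branched-chain amino acids had 1 call in each direction among 29 genes. Pccb, a subunit of propionyl-CoA carboxylase, was lower (weekly 39.1, 31.9, 35.2, 29.5 and 47.7; daily 27.8, 23.7, 23.9, 21.3 and 20.8; log2 difference -0.62, SE 0.14, BH-adjusted p = 0.0478 by limma). Klf15, which activates several of these enzymes, was higher and is described with the steroid targets. The list's median was -0.28 with 24 of 29 negative, and without weekly 4, 13 were called lower and 2 higher. Leaving out any other single library left at most 2 called lower.

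Several genes outside lipid metabolism were also lower. C3, the central complement component, stood at 133, 176, 227, 209 and 292 in the weekly and 95.97, 87.3, 92.6, 84.8 and 85.8 in the daily libraries, without overlap (log2 difference -1.17, SE 0.17, BH-adjusted p = 0.010 by limma). Vehicle held 180.1 to 204, above every daily library. C3 was the single call among 27 inflammatory mediators (1 higher and 1 lower without weekly 4), and it kept its call in all 23 alternatives. Hba-a1, an adult alpha-globin gene of red blood cells, also lay lowest in the daily libraries: vehicle 29.4 to 36.04, weekly 22.98, 16.5, 24.4, 19.4 and 23.9, daily 13.3, 10.97, 10.2, 10.96 and 10.8 (log2 difference -0.89, SE 0.14, BH-adjusted p = 0.0112 by limma). Its near-identical copy can share reads with it, so its own level is uncertain, and the beta-globin gene Hbb-bs had a log2 difference of -0.64 (BH-adjusted p = 0.0766 by limma), which was not a call. These were the 2 negative differences among the 5 blood cell markers tested. The other 3 were positive, and the median of the list was 0.04.

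Hsp90aa1, a chaperone that holds the unliganded glucocorticoid receptor, was lower in every daily library: 88.3, 86.7, 91.4, 99.3 and 102 with weekly and 57.1, 60.98, 62.8, 60.2 and 64.6 with daily treatment (log2 difference -0.61, SE 0.09, BH-adjusted p = 0.010 by limma). Vehicle held 52.3 to 59.2, below every weekly library. It was the single call among 24 chaperone genes (median -0.15), and 5 were called lower and 1 higher without weekly 4. Rrad, a small GTPase that restrains calcium channels and rises in stressed muscle, stood at 124, 108, 233, 251 and 124 with weekly and 78.3, 76.6, 75.4, 66.6 and 77.7 with daily treatment (log2 difference -1.07, SE 0.22, BH-adjusted p = 0.033 by limma). Its vehicle levels, 12.2 to 16.4, were far below both. Ehd2, a membrane-remodelling ATPase of caveolae and the single call among 25 annexin and membrane repair genes (1 higher and 2 lower without weekly 4), went from 76.01 ± 13.5 to 48.9 ± 3.02 scaled CPM (mean ± SD, n = 5 each; log2 difference -0.62). Cdkn2c, an inhibitor of the cell cycle kinases CDK4 and CDK6, had a log2 difference of -1.03.

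Pfkfb3, which makes the activator of phosphofructokinase and so speeds glycolysis, was the single call among 28 glycolysis and glycogen genes (median -0.05). It stood at 93.1, 119, 116, 83.2 and 167 in the weekly and 57.9, 65.5, 53.4, 57.9 and 56.5 in the daily libraries (log2 difference -0.94, SE 0.16, BH-adjusted p = 0.0142 by limma). Vehicle held 113 to 121, inside the weekly range and above every daily library. Pfkfb1, another isoform, had the opposite sign (log2 difference 0.73, BH-adjusted p = 0.0519 by limma) and was called higher without weekly 4, when the list had 2 higher and 1 lower call.

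Among the genes higher with daily treatment that the rule named, which leaves out predicted genes, Odf3l2 had the largest difference. Odf3l2, a relative of an outer dense fibre protein of sperm tails, stood at 0.946, 1.76, 0.179, 2.09 and 2.195 in the weekly and 9.79, 6.69, 7.25, 7.86 and 8.64 in the daily libraries (log2 difference 2.29, SE 0.33, BH-adjusted p = 0.010 by limma), with vehicle at 0 to 0.578. A level of 3 reads corresponds to 0.271 to 1.079 deposited CPM in the weekly libraries, so the weekly values of Odf3l2 are near that floor. Tfcp2l1, a transcription factor of the CP2 family, had 2.16, 5.799, 3.402, 1.79 and 2.31 with weekly and 13.6, 10.03, 12.8, 9.72 and 12.2 with daily treatment (log2 difference 1.85, SE 0.25, BH-adjusted p = 0.010 by limma). Greb1, known as a gene induced by oestrogen receptor and other steroid receptors, had 5.54, 5.096, 8.06, 6.56 and 6.37 with weekly and 24.5, 23.4, 22.2, 10.96 and 18.9 with daily treatment (log2 difference 1.55, SE 0.21, BH-adjusted p = 0.010 by limma). In all 3 genes every daily library was above every weekly one.

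The rule also named Arrdc2, Hif3a, Cacna1i, Doc2b and Mir1b. Arrdc2, an arrestin-domain protein, had 3.24, 5.97, 6.36, 19.7 and 5.49 with weekly and 21.5, 21.8, 23.4, 21.3 and 24.3 with daily treatment (log2 difference 1.66, SE 0.33, BH-adjusted p = 0.0304 by limma), so weekly 4 lay far closer to the daily libraries than the other weekly ones did. Hif3a, a hypoxia-inducible factor subunit that is also a known steroid-responsive gene, had 0.405, 0.791, 0.627, 2.09 and 1.098 and 4.48, 3.48, 2.18, 3.103 and 4.39 (log2 difference 1.48, SE 0.29, BH-adjusted p = 0.026 by limma), and again the highest weekly library was weekly 4. Cacna1i, a T-type calcium channel, had a mean of 0.906 ± 0.667 with weekly and 3.89 ± 0.491 with daily treatment (SD, n = 5 each; log2 difference 1.75). Doc2b, a calcium sensor of vesicle fusion, had 0.596 ± 0.217 and 2.21 ± 0.469 (log2 difference 1.31). The feature Mir1b (log2 difference 1.85) is a miRNA locus, where reads of the miRNA and of a longer transcript over it cannot be told apart. In weekly 4, Cacna1i, Doc2b and Mir1b stood at 0.298, 0.596 and 0 scaled CPM, below the level of 3 reads in that library.

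**Figure D4:**
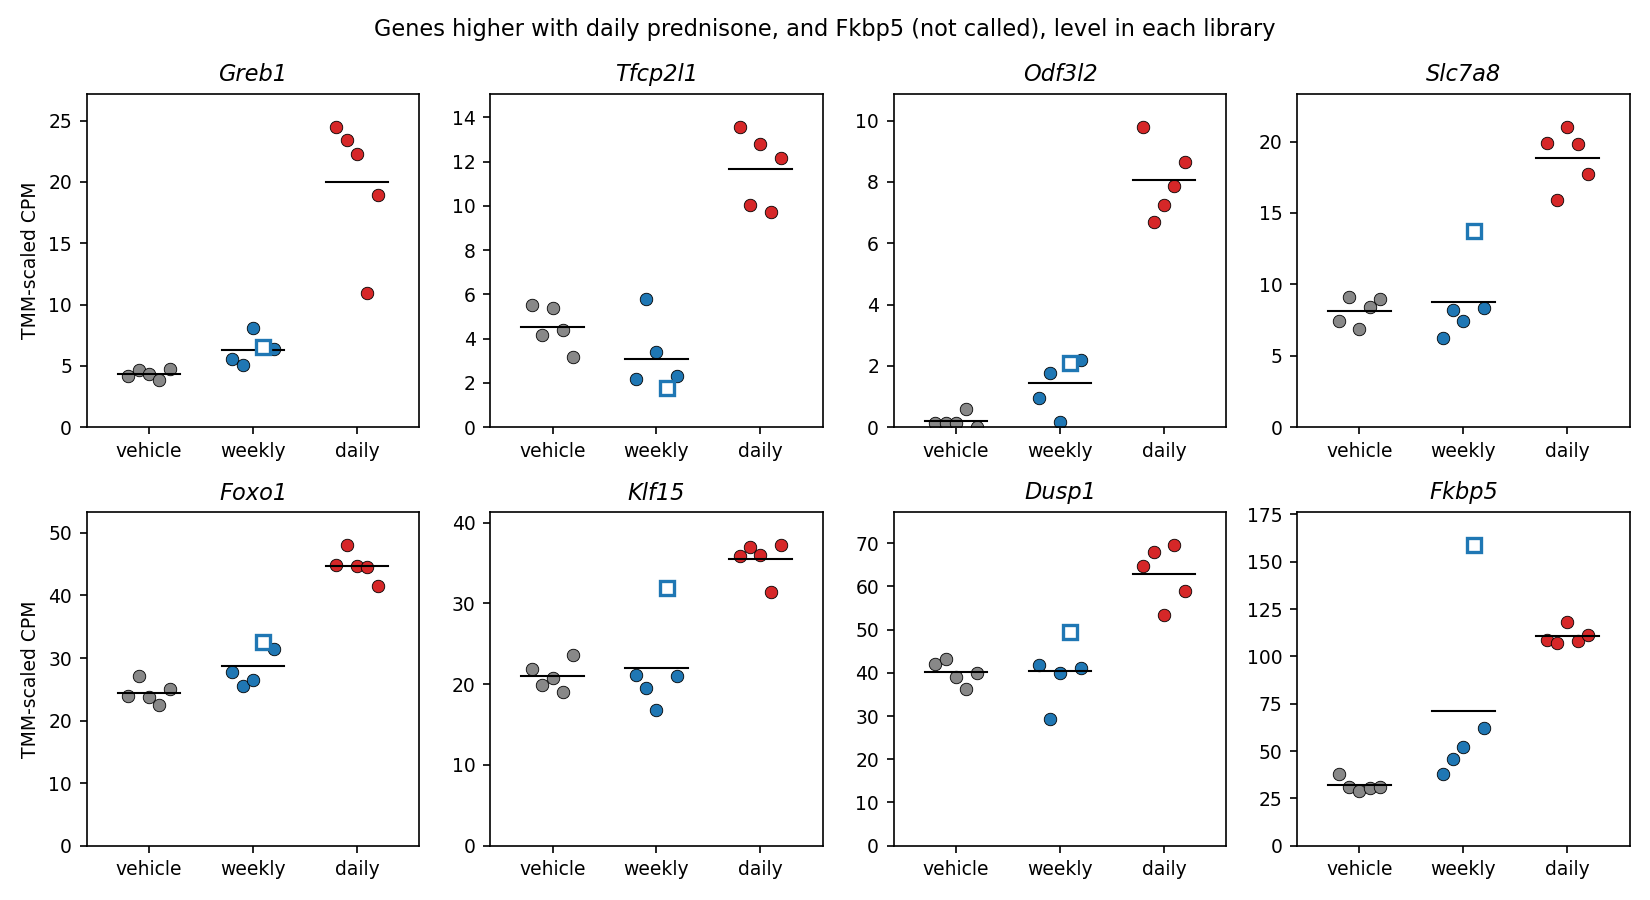
TMM-scaled CPM (vertical axis, linear, from 0) of 8 genes in each of 5 vehicle, 5 weekly and 5 daily libraries (horizontal axis); points are libraries in order of replicate number, the open square is weekly 4 and bars are group means. Greb1, Tfcp2l1, Odf3l2, Slc7a8, Foxo1 and Dusp1 do not overlap between weekly and daily, whereas weekly 4 reaches the daily range for Klf15 and exceeds it for Fkbp5.

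Of 28 known glucocorticoid receptor targets tested, 2 were called higher and 0 lower with all libraries (median log2 difference 0.27 on the TMM scale and -0.01 on the deposited scale, where the median of all genes was -0.24). Without weekly 4, 11 were called higher and 3 lower, and leaving out any other single library left at most 1 called higher and at most 1 lower. On the recovered reads, edgeR called 2 higher and 2 lower and DESeq2 4 higher and 2 lower. Weekly 4 had the highest median level of the list of any of the 10 libraries, 0.40 log2 units above the gene means. Weekly 1, 2, 3 and 5 were at -0.50 to -0.02 and the daily libraries at 0.06 to 0.21. The vehicle libraries were at -0.86 to -0.62.

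Klf15, a Krüppel-like factor that steers muscle toward amino acid and lipid use, stood at 21.1, 19.5, 16.7, 31.9 and 20.97 in the weekly and 35.8, 37.04, 36.01, 31.4 and 37.2 in the daily libraries (log2 difference 0.71, SE 0.15, BH-adjusted p = 0.0381 by limma). Weekly 4 fell inside the daily range and the other 4 weekly libraries were below it. Its call held in 12 of 23 alternatives. Dusp1, a phosphatase that switches off MAP kinases and is induced by steroids, stood at 41.8, 29.4, 39.9, 49.5 and 41.2 and 64.8, 67.9, 53.4, 69.5 and 59.00, without overlap (log2 difference 0.65, SE 0.14, BH-adjusted p = 0.0351 by limma), and its call held in 13 of 23. Vehicle levels of both genes, 18.97 to 23.6 and 36.2 to 43.2, were below every daily library.

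Fkbp5, the most widely used readout of receptor activity, was not called with all libraries. Its weekly libraries held 37.8, 45.9, 52.2, 159 and 62.2 and its daily libraries 109, 107, 118, 108 and 112 (log2 difference 0.84, SE 0.29, BH-adjusted p = 0.215 by limma), and vehicle held 28.7 to 37.7. Weekly 4 was above every daily library and the other 4 weekly libraries below all of them. Per1 (weekly 25.7, 23.5, 33.8, 62.9 and 40.5; daily 65.1, 67.4, 58.97, 61.2 and 60.03; log2 difference 0.83, BH-adjusted p = 0.0864 by limma) and Tsc22d3 (weekly 155, 221, 198, 353 and 167; daily 298, 306, 304, 299.5 and 251; 0.48, 0.271) were not called either. Weekly 4 lay inside the daily range for Per1 and above it for Tsc22d3, and the other 4 weekly libraries were below every daily library for both. Without weekly 4, limma called all 3 higher, with log2 differences of 1.17, 1.03 and 0.66.

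Further targets called higher without weekly 4 included Ddit4, an inhibitor of mTORC1 signalling (2.34, against 1.75 and no call with all libraries), Zbtb16 (0.87) and Nfkbia, the NF-kappaB inhibitor (0.79), named here after their values were seen. The 3 called lower without weekly 4 were Hsd11b1, which regenerates active glucocorticoid inside cells (-2.89), Angptl4, an inhibitor of lipoprotein lipase (-0.87), and the receptor Nr3c1 itself (-0.30). Hsd11b1 stood at 12.3, 8.26, 17.9, 1.19 and 34.03 in the weekly and 2.24, 1.605, 1.93, 1.03 and 1.903 in the daily libraries. Nr3c1 stood at 153, 156, 143, 76.1 and 136 and 123, 123, 131, 116 and 107 (log2 difference with all libraries -0.10, BH-adjusted p = 0.833 by limma).

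The promoters of called genes were searched, on both strands, for motifs of the factors that bear on steroid and clock regulation. RefSeq promoter windows of GRCm38.p6, from 250 bases before to 50 after each start, were found for 68 of the genes called higher and 71 of those called lower. The E-box letters CACGTG, bound by clock and other basic helix-loop-helix factors, were in 10% of the 90 windows of higher genes and 12.6% of the 87 windows of lower genes, against 9.73% of the 12644 windows of all genes tested. The cyclic AMP response element letters TGACGTCA were in 6.67% (6 of 90) and 1.15% (1 of 87), against 2.89% of those tested. The full palindrome of the glucocorticoid response element, AGAACA and TGTTCT 3 bases apart, was in 1 of the 12644 windows and in 0 windows of called genes, which speaks only of these letters in these windows. Stretches of 100 bases from the promoter windows of the called steroid targets Klf15 and Dusp1 and of Pfkfb3 are shown because they hold such letters. Sequences are 5′ to 3′ along the gene's strand, from RefSeq (GRCm38.p6), with every match in the stretch in capitals: 2 E-boxes in Klf15, whose window has another closer to the start (chr6:90462329-90462428, plus strand), a cyclic AMP response element and then an E-box in Dusp1 (chr17:26508555-26508654, minus strand), and 1 E-box in Pfkfb3 (chr2:11502091-11502190, minus strand).
Klf15: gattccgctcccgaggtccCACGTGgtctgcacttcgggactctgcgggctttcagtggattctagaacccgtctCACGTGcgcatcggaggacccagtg
Dusp1: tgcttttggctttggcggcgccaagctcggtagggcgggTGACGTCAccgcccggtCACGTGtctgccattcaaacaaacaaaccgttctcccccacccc
Pfkfb3: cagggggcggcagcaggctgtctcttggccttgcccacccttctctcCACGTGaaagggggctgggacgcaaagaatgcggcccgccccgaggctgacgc
A match is a string of letters and not a measured binding site. Klf15 and Dusp1 were higher and Pfkfb3 lower with daily treatment, so genes with an E-box in this window occurred in both directions.

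Of 35 atrophy and FoxO genes, 2 were called higher and 0 lower (median 0.01), and 7 were higher and 3 lower without weekly 4. Foxo1, a transcription factor that activates atrophy genes, stood at 27.7, 25.6, 26.5, 32.5 and 31.5 in the weekly and 44.9, 48.01, 44.7, 44.5 and 41.4 in the daily libraries, without overlap (log2 difference 0.63, SE 0.10, BH-adjusted p = 0.0119 by limma; 95% interval 0.41 to 0.85). Its vehicle levels were 22.4 to 27.2, and its call held in 20 of 23 alternatives. Klf15, also on this list, was the other call.

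The ubiquitin ligases of atrophy were not called with all libraries. Trim63 (MuRF1) stood at 162, 157, 145, 302 and 120.1 with weekly and 225, 200.6, 218, 214 and 184 with daily treatment (log2 difference 0.31, BH-adjusted p = 0.516 by limma), with weekly 4 above every daily library and the other weekly libraries below them. It was called higher without weekly 4 (0.51). Fbxo32 (atrogin-1) stood at 325, 405, 287, 195 and 238 and 330.3, 338, 375, 333 and 277 (log2 difference 0.23, BH-adjusted p = 0.589; 95% interval -0.15 to 0.61), and vehicle held more than either, 578 to 656. On the deposited scale the sign for Fbxo32 was the opposite. Foxo3 had a log2 difference of 0.42 (BH-adjusted p = 0.278 by limma) and was called higher without weekly 4, at 0.59. Mstn, the muscle growth inhibitor myostatin, stood at 11.4, 24.7, 17.1, 7.16 and 8.12 and 16.8, 14.6, 20.3, 21.3 and 18.2 (0.53, 0.424).

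Amino acid transport held 1 call among 19 genes, and 1 higher and 2 lower without weekly 4. Slc7a8, the light chain LAT2 of an exchanger of neutral amino acids, stood at 6.22, 8.17, 7.43, 13.7 and 8.34 in the weekly and 19.9, 15.9, 21.03, 19.9 and 17.7 in the daily libraries, without overlap (log2 difference 1.10, SE 0.18, BH-adjusted p = 0.0139 by limma). Vehicle held 6.84 to 9.101, below every daily library. Igf1, a growth factor of muscle, was not called (weekly 18.5, 39.3, 38.05, 31.02 and 35.5; daily 23.5, 21.9, 20.8, 20.48 and 28.3; log2 difference -0.45, BH-adjusted p = 0.299 by limma), and none of the 28 genes tested for insulin and growth factor signalling was called by limma, edgeR or DESeq2; 8 of them had an unadjusted p under 0.05 by limma, and without weekly 4 limma called 3 higher and 2 lower.

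For genes of the muscle membrane, the background is the 1.6% of all genes tested that were called. Of 23 dystrophin complex genes, Lama2, the laminin chain of the muscle basement membrane, was the single call (2 higher and 1 lower without weekly 4). It stood at 124, 149.5, 166, 110.0 and 131 in the weekly and 200.9, 200.4, 205, 184 and 180.4 in the daily libraries (log2 difference 0.52, SE 0.12, BH-adjusted p = 0.0449 by limma), and its call held in 13 of 23 alternatives. Reads on Dmd, the mutated gene, were 419.8, 452, 408, 184 and 389 and 578, 634, 519.6, 554 and 553 (log2 difference 0.68, BH-adjusted p = 0.16 by limma), with weekly 4 the lowest library; every daily library was above every weekly one, although the difference was not a call. Utrn, the dystrophin relative utrophin, had a log2 difference of -0.01 with a 95% interval of -0.20 to 0.19. Anxa1 and Anxa6, annexins of inflammation and of membrane repair, had differences of -0.26 and -0.30 (BH-adjusted p = 0.776 and 0.14 by limma). Anxa6 was called lower without weekly 4, at -0.28. The sign for Utrn and Anxa1 was the opposite in some alternatives.

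Matrix and macrophage genes were set apart by weekly 4. Of 44 matrix and fibrosis genes none was called by limma with all libraries (median -0.17; 3 with an unadjusted p under 0.05), nor by edgeR or DESeq2, and 4 were higher and 1 lower without weekly 4. Col1a1, a chain of type I collagen, stood at 629, 561, 768, 6405 and 676 with weekly and 847, 973, 984, 1081 and 1187 with daily treatment. Its log2 difference was -0.03 with all libraries and 0.61 without weekly 4, where limma called it higher. Spp1, the cytokine osteopontin made by macrophages of injured muscle, stood at 15.5, 45.2, 30.5, 743 and 48.7 and 63.1, 74.5, 134, 186 and 210.2 (log2 difference 0.99, BH-adjusted p = 0.61 by limma; 1.88 and called without weekly 4). For Spp1 edgeR and DESeq2, which average on the count scale, gave the opposite sign with all libraries. Of 31 macrophage and myeloid genes none was called by limma (6 with an unadjusted p under 0.05) or edgeR, while DESeq2 called 3 lower, and without weekly 4 limma called 4 higher and 2 lower. The median of that list was 1.57 log2 units above the gene means in weekly 4 and 1.05 below them in weekly 1.

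**Figure D5:**
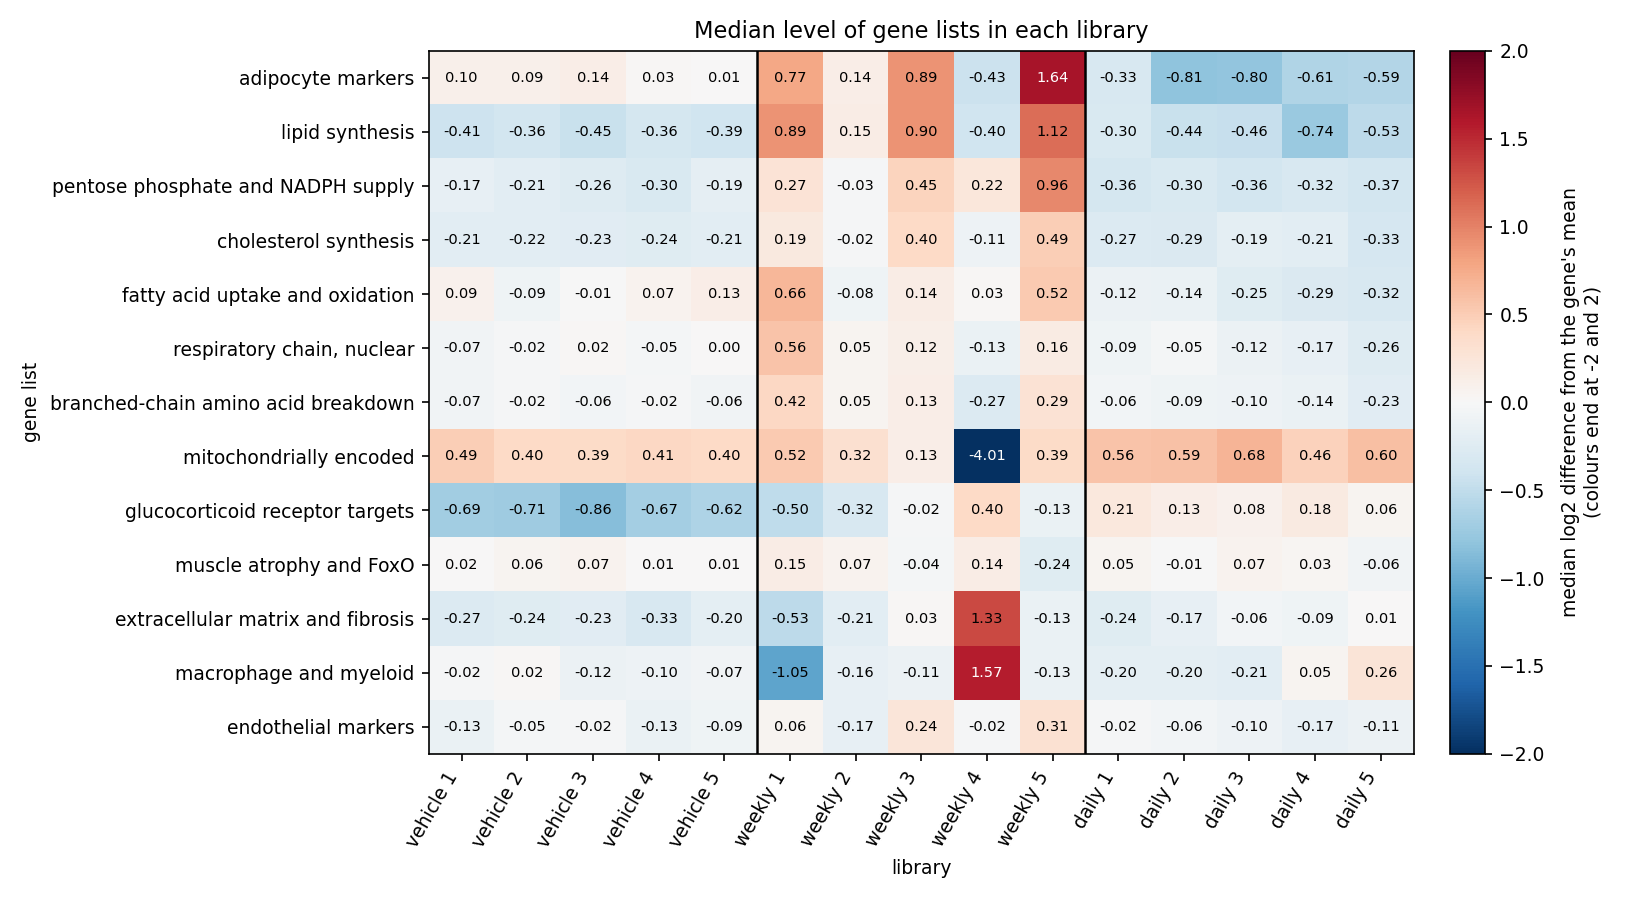
Median over the members of 13 gene lists (vertical axis) of the log2 difference from each gene's mean over the 10 weekly and daily libraries, in each of the 15 libraries (horizontal axis; red above, blue below). Adipocyte and lipid synthesis genes were highest in weekly 5 (1.64 and 1.12), and weekly 4 stood apart for mitochondrially encoded (-4.01), matrix (1.33) and macrophage genes (1.57).

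Calls among markers of other cell types are set against the 1.6% of all genes tested that were called. One of 22 endothelial markers was called, the shared adipocyte gene Fabp4, and the list's median was -0.17. Without weekly 4, 6 of the 22 were lower, and the summed level of the list was 753 to 1707 scaled CPM over the weekly, 656 to 703 over the daily and 726 to 755 over the vehicle libraries. That sum includes Fabp4, which alone held 149 to 1005 over the weekly, 96.7 to 133 over the daily and 187 to 204 over the vehicle libraries. One of 12 tendon markers, the tendon transcription factor Mkx, was higher (weekly 0.811, 1.23, 1.43, 1.49 and 1.32; daily 3.22, 3.34, 3.14, 3.52 and 3.51; log2 difference 1.15, SE 0.18, BH-adjusted p = 0.0119 by limma), with vehicle at 2.52 to 4.598, a range that includes the daily one; without weekly 4, 2 of the 12 were higher. No member was called by limma with all libraries among 18 fibroblast, 13 smooth muscle and pericyte, 11 Schwann cell, 15 bone, 3 lymphocyte or 24 regeneration and satellite cell genes; 3, 2, 4, 5, 0 and 2 of these had an unadjusted p under 0.05. In these lists edgeR called 1 fibroblast, 1 Schwann cell and 1 bone gene lower, and DESeq2 2 fibroblast, 2 smooth muscle, 1 Schwann cell and 3 bone genes lower. Without weekly 4 limma called 2 fibroblast, 2 smooth muscle, 1 Schwann cell and 2 bone genes lower, and 2 bone genes and 1 regeneration gene higher. None of 18 fast fibre and 17 slow fibre genes was called by limma, edgeR or DESeq2, and 1 and 2 of them had an unadjusted p under 0.05 by limma. The slow fibre list had a median log2 difference of -0.49, with 14 of 17 negative, and a median of -0.46 without weekly 4. The fast fibre list had a median of -0.02, with 11 of 18 negative. Myh4, the myosin of the fastest fibres, stood at 19663, 42228, 26342, 31077 and 16698 with weekly and 28604, 25288, 28738, 27624 and 23932 with daily treatment (log2 difference 0.06), and its sign changed with the scaling.

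Clock and zinc genes, which move with steroid exposure, gave no call between the regimens by limma with all libraries. None of 17 core clock, 13 clock output and 14 metallothionein and zinc transporter genes was called by limma with all libraries, with 5, 4 and 2 at an unadjusted p under 0.05. Nor did edgeR call any, and DESeq2 called 1 higher and 1 lower on each of the clock lists and 0 metallothionein or zinc transporter genes. Without weekly 4 limma called 1 core clock gene in each direction, 3 clock output genes higher and 1 lower, and 0 metallothionein or zinc transporter genes. Dbp, a clock output factor, stood at 5.14, 5.36, 3.402, 5.07 and 3.18 with weekly and 3.36, 3.74, 4.11, 3.103 and 4.69 with daily treatment (95% interval of the log2 difference -0.60 to 0.23), while vehicle held 27.4 to 36.4. Arntl (BMAL1), the activator of the core clock, stood at 33.5 to 41.99 with weekly and 34.6 to 45.5 with daily treatment against 13.3 to 15.6 in vehicle. Mt2, a metallothionein induced by steroids and zinc, stood at 72.7 to 175 and 81.4 to 131 against 16.5 to 21.5. For these 3 genes both prednisone groups lay on the same side of vehicle, and the intervals of the log2 difference between the regimens were -0.60 to 0.23, -0.13 to 0.33 and -0.63 to 0.25.

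The immediate early and stress list had 2 of 30 genes called higher, Dusp1 and Cyr61 (a matrix-bound growth regulator, log2 difference 0.70, named after its value was seen), and 1 lower, Rrad; without weekly 4, 3 were higher and 1 lower. The proteasome (32 genes), cytosolic ribosomal protein (40) and stretch response (16) lists had 0 calls by limma, edgeR or DESeq2. They had 4, 7 and 1 genes at an unadjusted p under 0.05 by limma, against 1921 of all 13713 genes tested. Their median log2 differences were -0.09, -0.18 and -0.06, with 23 of 32, 36 of 40 and 10 of 16 negative. The 5 blood cell and 22 cell cycle genes had 1 lower call each, Hba-a1 and Cdkn2c; without weekly 4, 2 blood cell genes were lower, and 5 cell cycle genes were higher and 2 lower.

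Vehicle levels were set beside the called differences. For the 105 genes lower with daily treatment, the vehicle mean was nearer the daily than the weekly mean in 84, between both in 85, below both in 17 and above both in 3. For the 114 higher genes it was nearer the daily mean in 29, between both in 74, below both in 38 and above both in 2. Fasn, Acly, Tkt and Srebf1 are examples in which daily and vehicle levels were close and weekly levels higher. In Slc7a8, Foxo1 and Klf15 weekly and vehicle levels were close and daily levels higher, weekly 4 aside for Slc7a8 and Klf15. In Greb1 every weekly library (5.096 to 8.06) was above every vehicle library (3.82 to 4.72) and below every daily one. These counts describe the genes already called and carry no test. They were not taken over all genes tested, so they cannot be set against a background.

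Among the higher calls, 29 of 114 had predicted or accession-like names, against 4 of 105 lower calls. Such names were not counted over all genes tested, so neither count can be set against a background. The list of nuclear and ribosomal RNA features had 2 calls, both higher, among 12 tested (3 without weekly 4), with a median of 0.67. AY036118, annotated as a long noncoding RNA on chromosome 17, 39847113 to 39848035, minus strand (GENCODE M21, GRCm38), stood at 535, 201.5, 162, 357 and 270.4 in the weekly and 589, 668, 755, 758 and 879.9 in the daily libraries (log2 difference 1.37, SE 0.27, BH-adjusted p = 0.0257 by limma). Meg3, an imprinted nuclear long noncoding RNA, stood at 20.95, 29.2, 27.7, 28.03 and 25.8 and 33.3, 37.8, 38.4, 36.4 and 40.8 (log2 difference 0.50, SE 0.11, BH-adjusted p = 0.0471 by limma). The share of Gm26924 and Lars2 was 0.0927% to 0.808% in the weekly and 0.274% to 28.3% in the daily libraries (exact permutation test, two-sided p = 0.0873, BH-adjusted over 2 library measures p = 0.0873). The part of RNA composition in these calls was not tested.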

How the data were processed

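RNA was measured by stranded total RNA sequencing of quadriceps, per the labels' protocols. The submitters' processing notes name TopHat2 (version 2.1.0), HTSeq and edgeR and the mouse build mm10. No source states whether counting used the strand, so overlapping, antisense and near-identical genes are uncertain. The authors deposited a table whose values are CPM, although the series text names RPKM: dividing a library's values by its smallest step gave whole numbers, with offsets of at most 0.000369 reads, so the reads could be recovered. Unnamed rows (534 of 14806, 0.276% to 0.447% of the values of a library) were left out.

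The CPM values of the 10 libraries were divided by TMM factors (edgeR 4.0.16; 0.641 for daily 3, 0.946 to 1.21 for the others) and, with 0.5 CPM added, converted to log2. The test was limma (version 3.58.1, under R version 4.3.3) with a mean-variance trend and regimen as the only term. Fold changes are on that scale, where the added 0.5 CPM shrinks those of weakly expressed genes. Genes needed 1 deposited CPM in at least 5 of the 10 libraries, which kept 13713 and removed 559. Adjustment of p-values followed Benjamini and Hochberg (BH) over all genes tested, and an adjusted p under 0.05 is a call. DESeq2 1.42.0 and edgeR's quasi-likelihood test on the recovered reads, other scalings, filters and pseudocounts, and left-out libraries are alternatives. The method was tested on simulated data. A level of 3 reads was 0.271 to 1.079 CPM, and this floor covers counting error only.

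Named genes are the 8 largest calls in each direction that reach 2 scaled CPM in one group's mean, predicted genes aside, then from every list the 2 members of smallest p over 41 lists (922 genes, 847 tested) and 24 genes of prior interest, 110 in all; members called on a list are named beside them. All 110 had 1 match in GENCODE M21. The comparison, the lists and the tests were chosen with earlier results of these data known.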

Additional observations from a re-analysis of the deposited data

Results flagged for a closer look

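Of 220 sets of 5 libraries (110 named genes in 2 groups), 20 had a highest or lowest library far from the rest by Dixon's test at its 95% level, and chance alone gives about 1 in 20. Of the 20, 12 concerned weekly 4. In that library the matrix genes Col1a1 (6405 scaled CPM, other weekly libraries 561 to 768) and Col15a1 (245, others 90.3 to 104), the lysosomal protease gene Ctsd (788, others 467 to 509.8), the surface marker Thy1 (22.7, others 5.00 to 7.79), the growth factor Igf2 (83.5, others 52.4 to 56.0), the zinc transporter Slc39a6 (18.2, others 7.12 to 7.97), the ribosomal protein gene Rps6 (160.2, others 106 to 112) and Foxo3 (115, others 57.6 to 66.6) were high. In the same library mt-Nd5 (205, others 1162 to 1967), Dmd (184, others 389 to 452), the glucocorticoid receptor gene Nr3c1 (76.1, others 136 to 156) and Pfkfb1 (14.3, others 23.9 to 27.6) were low.

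The other 8 lay in the daily group. Daily 4 was low for Klf15 (31.4, others 35.8 to 37.2) and Rrad (66.6, others 75.4 to 78.3). Daily 1 was high for Hba-a1 (13.3, others 10.2 to 10.97) and low for Ltbp4 (103, others 117 to 122). Daily 2 was high for Chodl (14.04, others 8.49 to 9.67) and low for Mmp9 (0.936, others 2.098 to 2.78). Daily 3, the library with the largest share of ribosomal RNA features, was high for mt-Nd6 (259, others 119 to 143). Daily 5 was low for Tsc22d3 (251, others 298 to 306).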

How the results depend on the processing

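Counts of genes higher and lower in daily were within 1.5 times the main 114 and 105 with quantile normalization, other pseudocounts and other filters. On the deposited CPM they were 17 and 211, with all 15 libraries in the fit, where the closely alike vehicle libraries enter the estimate of spread, 292 and 371, with limma's array weights 957 and 961, with DESeq2 222 and 369, with edgeR 113 and 160, and without weekly 4 and daily 3 455 and 490. Leaving out 1 library gave 30 to 536 higher and 18 to 628 lower genes. Replicate numbers did not pair the libraries: deviations from the group means correlated between same-numbered libraries at 0.146, -0.032, -0.006, 0.088 and 0.005, and 1 of 5 weekly libraries matched its own number best. With a replicate block 46 genes were higher and 81 lower, and 28 of the 41 named calls were kept.

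No called named gene changed sign. Of those not called, signs changed as follows, and the cause was not tested. On the deposited CPM, Fbxo32 was -0.049, Pdk4 -0.085, Arntl -0.17 and Myh4 -0.22. With quantile normalization, Utrn was 0.041, Col1a1 0.042, Ltbp4 0.014 and Myh4 -0.41. With array weights, Utrn was 0.0047 and Col1a1 0.44. With edgeR and DESeq2, Spp1 was -0.40 and -0.43 and Myh4 -0.031 and -0.038. Without weekly 4 and daily 3, Anxa1 was 0.085, Utrn 0.037, Col1a1 0.63 and Ltbp4 0.0085. Leaving out 1 library at a time gave -0.53 to 0.086 for Anxa1, -0.043 to 0.014 for Utrn, -0.27 to 0.61 for Col1a1, -0.11 to 0.010 for Ltbp4 and -0.12 to 0.21 for Myh4, with the positive ends of Anxa1 and Col1a1 without weekly 4. Depth limits the low genes: in weekly 4, 3 reads are 1.079 CPM, close to the weekly levels of Odf3l2, Hif3a and Mkx. Cacna1i, Doc2b and Mir1b were below that level in weekly 4.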

Other observations

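Some called genes that stand on none of the lists are given here. They were chosen after their values were seen, belong to no fixed list and were not tested as a group. Among the lower genes were Pck1, the phosphoenolpyruvate carboxykinase that supplies glycerol for triglyceride in fat (157 ± 144 with weekly and 16.1 ± 5.98 scaled CPM with daily treatment, mean ± SD, n = 5 each; log2 difference -2.88), the glycogen phosphorylase isoform Pygl (-2.66), the carboxylesterase Ces1d (-2.55), the kinase subunit Prkar2b (-2.54), the retinol carrier Rbp4 (-2.04), the pyruvate carboxylase Pcx (-1.47), the monoglyceride lipase Mgll (-1.21), the lipase inhibitor G0s2 (-1.59) and the glycerol phosphate dehydrogenase Gpd1 (-1.14). Pck1 in vehicle was 46.7 ± 4.196, between the regimens.

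Among the higher genes were the arrestin-domain gene Arrdc3 (log2 difference 0.57), the stress gene Trp53inp1 (0.64), the NADPH oxidase Nox4 (0.93), the chemokine scavenger Ackr3 (0.83), the ubiquitin ligase Rnf144b (1.18) and the terminal complement component C7 (0.98). C7 rose while C3, described above, fell: C7 stood at 1.76, 3.43, 3.31, 2.09 and 2.52 in the weekly and 5.46, 5.88, 6.28, 6.21 and 4.099 in the daily libraries. Interferon genes moved in both directions without weekly 4, where 3 of 30 were called higher (Mx1 1.41, Oas1a 0.81, Oas2 0.77) and 4 lower (B2m -0.82, H2-D1 -0.53, Igtp -0.57, Gbp2 -0.83); with all libraries none of the 30 was called by limma, and 11 had an unadjusted p under 0.05. Cell cycle genes likewise had 5 called higher without weekly 4, among them Mki67 (1.34) and Top2a (1.13), markers of dividing cells, and 0 with all libraries.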
